A study of Drosophila melanogaster with 4 samples.

Results

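Synaptic vesicle and axonal membrane genes were followed between pools of untreated fly heads. The 6 genes were Rab3, unc-13 and nSyb, which act in the release of synaptic vesicles, and Sh, Nrg and Ace, whose products sit in or on the neuronal membrane. They were taken by their current symbols, through the Entrez identifiers of the platform annotation, and were chosen with earlier results of these data known. The array carried 9 cDNA clones of these genes, each spotted as a pair. Of these, 8 clones had a value on at least 3 of the 4 arrays, among 4208 such clones in all. The first clone of Ace had no value on any array, as was the case for 68.3% of all 13824 clones. Clones of a gene were kept apart, except where genes were compared within arrays, where their values were averaged for each gene.

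All samples belonged to 1 group, NF-NF, with 4 replicate arrays. On each array, RNA of a Cy5-labelled pool of whole heads was hybridized with RNA of a Cy3-labelled pool. Both pools came from wild type Oregon-R males, unmated and 3 to 4 days old, reared on normal food (NF) without any drug. Flies spent 12 h in the treatment vessel, except those of the Cy3 pool on replicate 1, whose label says 6 h. In the study such arrays were the control time point of a series on flies fed the convulsant pentylenetetrazole. The arrays of the fed flies, each with its own pool on normal food, were not analysed here. A pool of whole heads mixes the brain with eyes, muscle, fat body and cuticle, so fewer cells of a type and less RNA per cell cannot be told apart. The study's methods call the arrays biological replicates, and the p-values below measure the spread between them.

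Chemical synapses pass a signal when vesicles filled with transmitter fuse with the membrane of the nerve terminal. Rab3 is a small GTPase carried on the vesicle, Unc-13 primes docked vesicles for fusion, and neuronal synaptobrevin, the product of nSyb, is the vesicle SNARE that pairs with syntaxin and SNAP-25 to drive fusion. Along the axon, Shaker, the product of Sh, is a voltage-gated potassium channel that repolarizes the membrane after an impulse. Neuroglian, the product of Nrg, is a cell adhesion molecule of the L1 family that binds ankyrin inside the cell. Ace encodes acetylcholinesterase, which removes acetylcholine, the main excitatory transmitter of the fly brain.

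Values are log2 ratios of Cy5 over Cy3 minus the median of the array, called centred below. A centred value of 0 means that the clone behaved like the middle clone of that array. A value below 0 means relatively less signal in the Cy5 pool. The study's methods mention dye-swapped slides, whereas by the labels Cy5 and Cy3 run the same way on every array. The sources used here do not name the swapped slides, so every sign below holds for the orientation of the labels. In that orientation the dyes and the pools go together. Their parts in the value of a clone therefore cannot be told apart, also where genes are compared within an array.

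Replicate 4 stood apart from the other arrays. It had values for 2240 spots, against 7966 to 8429 on replicates 1 to 3, and its median as deposited was -0.697, against 0.001 to 0.141. Over the analysed clones the SD of the centred values was 0.23 to 0.38 on the 4 arrays. Duplicate spots of a clone differed by a median of 0.10 to 0.13. Of the 8 clones, 4 had a value on replicate 4 (Rab3, the second clone of unc-13 and both clones of Sh).

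Among the vesicle genes, Rab3 had the lowest ratio and nSyb the highest. Rab3 was at -0.73, -0.35 and -0.37 on replicates 1, 2 and 4, and had no value on replicate 3. All 6 of its spot values lay below the array medians, and replicate 1 was lower than the other 2. The mean was -0.48 ± 0.22 (SD, n = 3), which is a Cy5 over Cy3 ratio of 0.715, with an adjusted p of 0.0698 in limma. Of all analysed clones, 3.92% had a lower mean.

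The SNARE gene nSyb lay on the other side of the array medians. Its clone was at 0.31, 0.18 and 0.16 on replicates 1 to 3. All 6 spot values lay above the array medians, between 0.07 and 0.40. The mean was 0.22 ± 0.08 (SD, n = 3), a ratio of 1.16, with a limma adjusted p of 0.171 and a 95% interval from -0.0038 to 0.44. Of all clones, 17.2% had a higher mean. Thus 2 proteins of the same vesicle had transcripts on opposite sides of the array medians, neither of which passed the test.

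The priming factor gene unc-13 was measured by 2 clones. The first clone was at -0.28, -0.29 and -0.22 on replicates 1 to 3 and was the most even of the 8, averaging -0.26 ± 0.04 (SD, n = 3), with a limma adjusted p of 0.118. The second clone was at -0.13, -0.07, 0.16 and -0.20 on replicates 1 to 4, so that its values straddled the array medians. Its mean was -0.06 ± 0.16 (SD, n = 4), with a limma adjusted p of 0.667. On each of the 3 arrays they shared, the first clone was lower than the second, by 0.15, 0.22 and 0.39. The mean difference of -0.25 ± 0.12 (SD, n = 3) can be read against 135 genes with 2 measured clones, where the median size of the difference was 0.20 and 37.0% of genes had a larger one. The sources used here do not say which transcripts of unc-13 each clone detects.

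Among the genes of the axonal membrane, Nrg was the lowest. It had -0.52, -0.40 and -0.27 on replicates 1 to 3, and all 6 of its spot values lay below the array medians. Its duplicate spots were close, differing by 0.006 to 0.073. The mean was -0.40 ± 0.12 (SD, n = 3), a ratio of 0.759, with an adjusted p of 0.0775 in limma. Of all clones, 7.84% had a lower mean.

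Both clones of the Shaker channel gene lay below the array medians. The first clone of Sh was at -0.23, -0.06, -0.34 and -0.02 on replicates 1 to 4, so that its values on replicates 2 and 4 were close to 0. Its mean was -0.16 ± 0.15 (SD, n = 4), with a limma adjusted p of 0.238. The second clone was at -0.21, -0.34 and -0.22 on replicates 1, 2 and 4, with a mean of -0.26 ± 0.07 (SD, n = 3) and a limma adjusted p of 0.127. The difference between the clones, first minus second, was 0.15 ± 0.16 (SD, n = 3) and did not have 1 sign over the shared arrays. Of the genes with 2 clones, 59.3% had a larger difference.

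Acetylcholinesterase transcript was read by 1 clone, the second of Ace. It had -0.35, -0.14 and -0.12 on replicates 1 to 3 and averaged -0.20 ± 0.13 (SD, n = 3), with a limma adjusted p of 0.211. On replicate 2 its duplicate spots were at 0.21 and -0.48 as deposited, on either side of the array median. Only 0.618% of clones had duplicates further apart on that array. No other value of the 8 clones had duplicates as far apart.

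**Figure D1:**
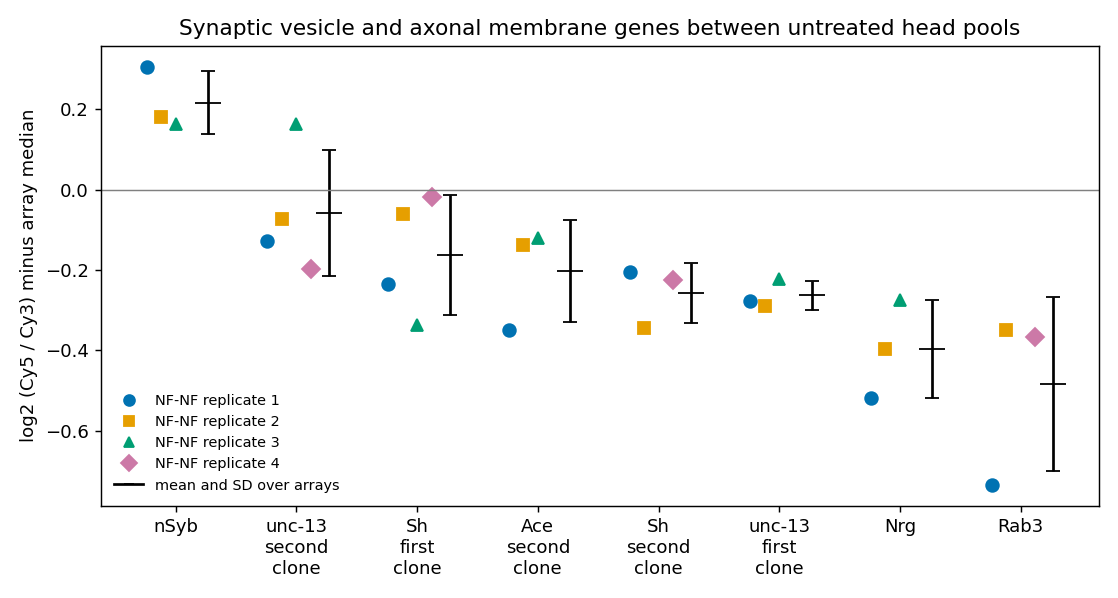
Centred log2 ratio of Cy5 over Cy3 for the 8 measured clones of the 6 genes, ordered by their mean, with 1 point per NF-NF array and the mean with its SD over arrays beside them. All points of nSyb lie above 0, all points of Rab3, Nrg, Ace, both clones of Sh and the first clone of unc-13 lie below 0, and the second clone of unc-13 lies on both sides.

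No clone of the 6 genes passed the test across all clones. At an adjusted p of 0.05, limma called 0 of 4208 clones (0.0%), while 1272 (30.2%) had an unadjusted p under 0.05. The clones of Rab3, Nrg, unc-13 (first) and Sh (second) were among the 710 clones (16.9%) that were lower with an unadjusted p under 0.05. SAM (Significance Analysis of Microarrays), which the study's methods name, was recomputed here. It gave 246 clones (5.85%) at a false discovery rate of up to 5%, with 43 higher (1.02%) and 203 lower (4.82%). The lower ones included the first clone of unc-13, at 1.05%, and Nrg, at 4.12%, while Rab3 was at 8.65%. The paper's own SAM of its control arrays found no differentially expressed gene except at a far higher false discovery rate. That run used the paper's own set of genes and its own permutations, so its rates cannot be set directly against those given here. When each array was centred on the clones with a value on all 4 arrays, limma called 78 clones (1.85%) and none of the 8. Without replicate 4 the adjusted p of limma was 0.0487 for Rab3 and 0.0434 for Nrg, where 380 of 4208 clones (9.03%) were called. Rab3 then rested on replicates 1 and 2 alone, as it had no value on replicate 3. As Nrg had no value on replicate 4, its own values and its mean were the same with and without that array.

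Below the array median on every array with a value were 6 of the 8 clones (75.0%), against 25.1% of all clones, and 1 of the 8, nSyb, was above on every array, against 25.3%. A mean below the array medians was found in 7 of the 8 clones (87.5%), against 50.5% of all clones. The median of the 8 clone means was -0.23, against -0.0030 over all clones. These counts depend on the orientation of the dyes. When the signs of replicates 2 and 3, 2 and 4, or 3 and 4 were turned, as swapped slides may need, 0 of the 8 clones were below on every array. For the 6 clones this loss follows by construction, as each had values on turned and unturned arrays, so it says nothing further about them. The 6 genes also share the arrays, so their signs are not independent of each other. They were chosen with earlier results of these data known, so these shares cannot be read as a test. Both clones of Sh are among the 6 clones. When the median of the spots within 24 rows of the deposited table was subtracted, 2 of the 8 clones were below on every array.

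Replicate 1, the array with unequal times in the vessel, held the most extreme value of Rab3, Nrg, Ace and nSyb. There the genes spanned 1.04, with nSyb highest and Rab3 lowest. On replicate 2 they spanned 0.577, with nSyb highest and Nrg lowest. On replicate 3 they spanned 0.499, with nSyb highest and Sh, by its first clone alone, lowest. Without replicate 1 the means were -0.36 for Rab3, -0.34 for Nrg, -0.13 for Ace and 0.17 for nSyb. The signs stayed the same in these 4 genes, and the adjusted p of limma was 0.476 for Rab3 and 0.503 for Nrg. The part of the vessel time in these values was not tested. On replicate 4, the sparse array, Sh was at -0.12, unc-13, by its second clone alone, at -0.20 and Rab3 at -0.37. Without any centring, which leaves the low median of replicate 4 in the values, the means were -0.67 for Rab3, -0.18 for the second clone of unc-13, and -0.28 and -0.44 for the first and second clones of Sh.

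The next comparison was between the genes within each array, where the labelling and the centring of the array are shared. By their means over clones and arrays the order was nSyb, unc-13, Ace, Sh, Nrg and Rab3. For this order and the differences below, the clones of a gene with a value were averaged on each array. Sh on replicate 3 was thus its first clone alone, and unc-13 on replicate 4 its second clone alone. The gap between nSyb and the next gene, unc-13, was 0.51, 0.36 and 0.19 on replicates 1 to 3. Against Nrg, nSyb was higher by 0.83, 0.58 and 0.44, with a mean difference of 0.61 ± 0.20 (SD, n = 3). Against Sh the difference was the most even, at 0.53, 0.38 and 0.50, with a mean of 0.47 ± 0.08 (SD, n = 3). Against Rab3 it was 1.04 and 0.53 on the 2 arrays where both had a value. The neighbours unc-13, Ace and Sh did not differ beyond their spread, with mean differences of 0.05 to 0.07 and both signs among the arrays. The same holds for Sh and Nrg, at 0.30, 0.20 and -0.06 on replicates 1 to 3, and for Nrg and Rab3, at 0.21 and -0.05 on replicates 1 and 2.

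Of the 15 pairs of genes, 10 had differences of 1 sign on every shared array, among them all 5 pairs with nSyb. Genes share 2 to 4 arrays, so the exact permutation test of the signs cannot give a p below 0.125 with 4 arrays, 0.25 with 3 or 0.5 with 2. The exact p lay between 0.25 and 1, two-sided, and the values adjusted over the 15 pairs between 0.469 and 1. With the signs of replicates 2 and 3, 2 and 4, or 3 and 4 turned, 2, 2 and 3 pairs had 1 sign. A pair of 1 sign loses it by construction when some, but not all, of its shared arrays are turned.

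**Figure D2:**
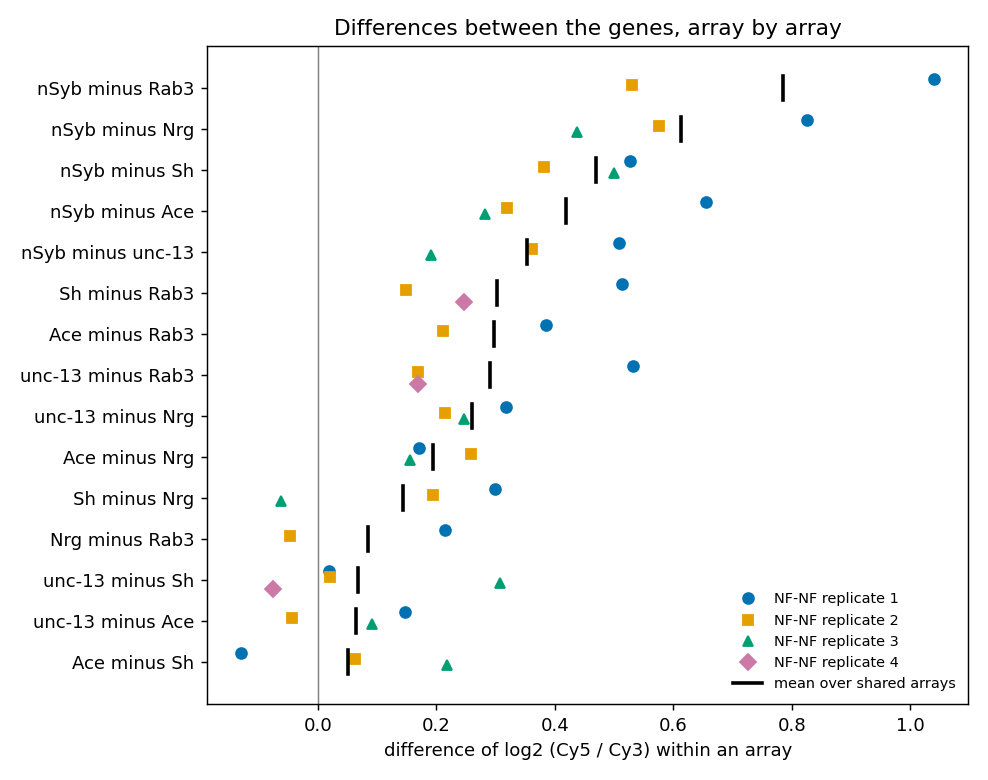
Difference of the centred log2 ratios of 2 genes within an array, for the 15 pairs of the 6 genes, with 1 point per NF-NF array where both genes had a value and a black bar at the mean. Clones of a gene were averaged. The 5 pairs with nSyb have every point above 0, and unc-13, Ace and Sh differ from each other by values on both sides of 0.

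Clones that stand close in the deposited table were then set beside the 6 genes. Near Rab3, 3 clones had values on the same arrays, and they were not alike. The clone 3 places further on, of the gene CG13868, was at -0.66, -0.34 and -0.34 on replicates 1, 2 and 4, where Rab3 was at -0.73, -0.35 and -0.37. The clone 6 places further on, of the stress-response gene Sesn, was at -0.19, -0.54 and -0.27. An unnamed clone 5 places before was at -1.32, -0.28 and 0.35, so it lay above the median on replicate 4. When the median of the spots within 24 rows was subtracted, which rested on 6 spots, Rab3 was at -0.08, 0.01 and -0.13, and its mean was -0.07 with a limma adjusted p of 0.634. With the 49 nearest spots that had a value, a wider stretch of the table, its mean was -0.42.

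Nrg, nSyb and the first clone of unc-13 each lay on 1 side of their surroundings on every array with a value, but none passed the test. Relative to the spots within 24 rows, Nrg had -0.46, -0.32 and -0.43 on replicates 1 to 3 and averaged -0.41. The local median rested on only 8 spots for Nrg and for the first clone of unc-13, and on 26 to 28 for nSyb. The first clone of unc-13 was at -0.38, -0.42 and -0.33, with a mean of -0.38. nSyb was at 0.46, 0.21 and 0.30, with a mean of 0.32. The clone next to nSyb, of CG10194, was nevertheless at 0.28, 0.35 and 0.20, close to nSyb itself. After this step the limma adjusted p was 0.0787 for Nrg, 0.0830 for the first clone of unc-13 and 0.106 for nSyb.

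Ace and the second clone of unc-13 changed side with the centring, and the clones of Sh did not. Ace had a mean of 0.11 relative to the spots within 24 rows and -0.27 relative to the 49 nearest spots. The second clone of unc-13 had means of 0.22 and 0.16 after the same steps. Relative to the spots within 24 rows it was at 0.84, 0.05, 0.18 and -0.19 on replicates 1 to 4, so replicate 1 was far above the others and replicate 4 was below its surroundings. The first clone of Sh averaged -0.23 and -0.27 and the second -0.14 and -0.11, with both signs among the arrays for each of them relative to the spots within 24 rows. The part of the position on the slide in these values was not tested, and the sources used here do not describe the layout of the slide.

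**Figure D3:**
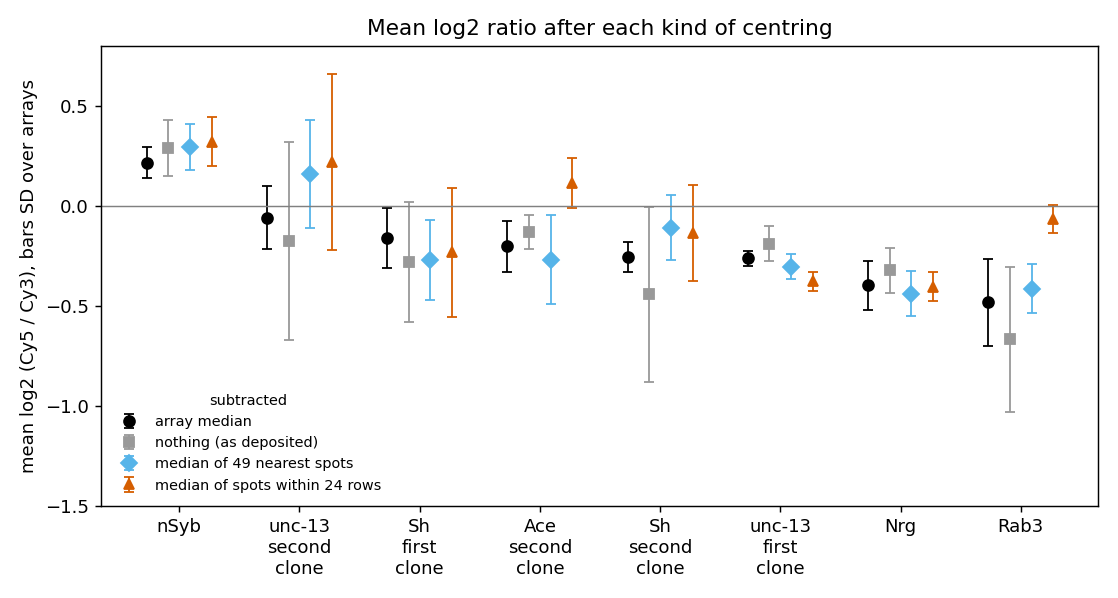
Mean log2 ratio of Cy5 over Cy3 of each clone, with the SD over arrays, after the array median, nothing, the median of the 49 nearest spots or the median of the spots within 24 rows was subtracted. The means of Ace and the second clone of unc-13 change sides, and those of the other 6 clones keep their side of 0 throughout, with Rab3 at -0.07 after subtraction of the spots within 24 rows.

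Clones of other genes with the most similar values were sought for each clone, by the root mean square difference over the arrays where it had a value. For Rab3 the nearest of 572 named clones were CG6282 and CG13868, at 0.046 and 0.048, and 6 clones lay within 0.1. For nSyb they were Zip102B, a zinc transporter gene, and CG6696, at 0.009 and 0.016, with 114 of 2407 clones within 0.1. Nrg was most like plum, which encodes an immunoglobulin superfamily protein of axons, and HIP, at 0.030 and 0.032, with 32 clones within 0.1. The first clone of unc-13 was most like Rab2, a small GTPase of the secretory pathway, and CkIalpha, a casein kinase, at 0.027 and 0.028. The second was most like CG14017 and Atg101, an autophagy gene, at 0.039 and 0.045 over 4 arrays. For Sh the nearest were CG3407 and alrm, an astrocyte marker, for the first clone (0.046 and 0.061 over 4 arrays) and MSBP and CG4928 for the second (0.074 and 0.080). Ace was most like CG12991 and CG15814, at 0.012 and 0.019. With 3 or 4 arrays such likeness is a description, and it is frequent, since up to 4.74% of the clones compared lay within 0.1 of one of these clones.

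Other genes of the synapse and the axon were examined by lists. The 6 lists held 144 genes, of which 67 were on the array and 29 were measured by 30 clones. None of the 30 clones passed the limma test in either direction (0 higher and 0 lower), and at an unadjusted p under 0.05 there were 5 higher and 9 lower of the 30, against 13.4% higher and 16.9% lower among all clones. Below the array median on every array were 8 of the 30 (26.7%), against 25.1% of all clones. Their median was -0.08, against -0.23 for the 8 clones of the 6 genes and -0.0030 over all clones. A mean below the array medians was found in 20 of the 30 (66.7%), against 50.5% of all clones.

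In the release of vesicles 3 clones were measured, with a median of 0.15. The highest was Rab27, another GTPase of secretory vesicles, at 0.16 ± 0.30 (SD, n = 3), and the lowest alphaSnap, which recycles SNARE complexes, at -0.09 ± 0.25 (n = 3). Syt12, of the synaptotagmin family, was the other measured clone, at 0.15 ± 0.20 (n = 4). Rab27 was at 0.19 and alphaSnap at 0.06 relative to the spots within 24 rows. In the recycling of vesicles the values were wide apart, with nwk, an adaptor of the nerve terminal membrane, at 0.37 ± 0.05 (SD, n = 3) and shi, the dynamin that pinches off vesicles, at -0.36 ± 0.29 (n = 3). The median of the 5 clones was -0.03. Relative to the spots within 24 rows, nwk was at 0.18 and shi at 0.01. For the filling of vesicles, subunits of the proton pump ran from VhaSFD, at -0.42 ± 0.04 (SD, n = 3), to a clone of Vha44, at 0.22 ± 0.19 (n = 4). VhaSFD was at -0.06 and this clone of Vha44 at 0.26 relative to the spots within 24 rows.

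The 2 measured clones of acetylcholine signalling other than Ace both had means below the array medians, as had 50.5% of all clones. The choline transporter ChT had -0.65, -0.14 and -0.50 on replicates 1 to 3 and averaged -0.43 ± 0.27 (SD, n = 3), with a limma adjusted p of 0.0939. The receptor subunit nAChRbeta1 was at -0.22 ± 0.20 (n = 3). Relative to the spots within 24 rows, ChT was at -0.03 and nAChRbeta1 at -0.11.

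Of the axonal channels and pumps 5 of 6 clones had a mean below the array medians, against 50.5% of all clones. The lowest was the calcium channel gene Ca-alpha1D, at -0.39 ± 0.08 (SD, n = 3), and the highest Slob, which binds a potassium channel, at 0.02 ± 0.15 (n = 4). The median of -0.17 was close to the first clone of Sh. Among adhesion and ankyrin genes, Lac, which encodes the immunoglobulin protein Lachesin, was the lowest, at -0.62, -0.59 and -0.71 on replicates 1 to 3. It averaged -0.64 ± 0.06 (SD, n = 3), with a limma adjusted p of 0.0545. The highest was Nlg3, a neuroligin, at 0.32 ± 0.08 (SD, n = 3). Relative to the spots within 24 rows, Ca-alpha1D was at -0.18 and Slob at 0.30, while Lac was at -0.21 and Nlg3 at 0.21. Ank, an ankyrin gene, at -0.47 ± 0.61 (SD, n = 4), and alpha-Spec, at -0.42 ± 0.38 (n = 3), had means as low as Nrg but a wide spread. Gli, Nlg2, fra and Nlg3 were above the medians, at 0.16 to 0.32. With 5 of 9 clones below the medians and a list median of -0.07, the adhesion and ankyrin genes did not share the value of Nrg as a group.

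Markers of the cell types of a head were checked in the same values. Of the 13 neuronal markers 5 were on the array, and 0 of their clones had a value on any array, so that the neuronal share of the pools could not be read from them. All 5 measured glial clones had means below the array medians, against 50.5% of all clones. Their median was -0.12, and the lowest was Eaat2, at -0.33 ± 0.36 (SD, n = 4). Eaat2 had -0.86 on replicate 1, against -0.08 to -0.29 on the other arrays, and was at 0.04 relative to the spots within 24 rows. Photoreceptor markers had a median of -0.00025 over 5 clones and muscle markers of -0.08 over 6. Fat body markers had a median of 0.03 over 6, with the yolk protein gene Yp3 at 1.31 ± 0.72 (SD, n = 4), the highest mean of all 4208 clones. The others did not share this value, with Yp2 at 0.52, Lsp2 at 0.05, the clones of apolpp at 0.0037 and -0.14, and FASN1 at -0.36. The part of the cell type makeup of the pools in the values of the 6 genes was not tested.

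**Figure D4:**
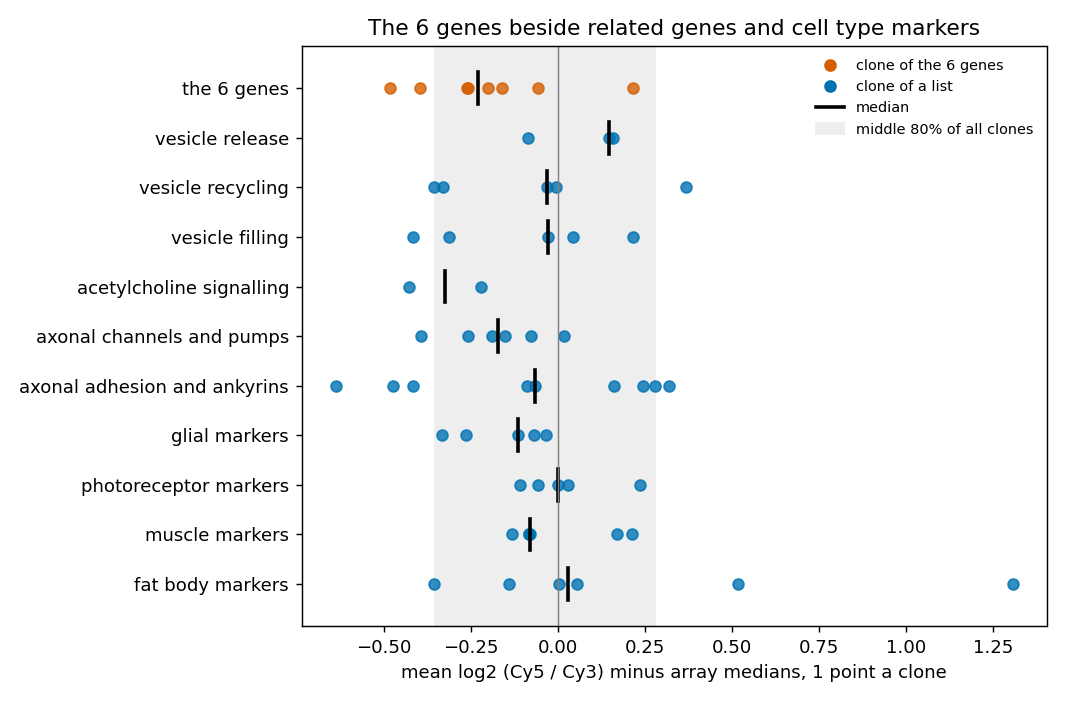
Mean centred log2 ratio of Cy5 over Cy3, with 1 point per clone, for the 6 genes at the top and below them the lists of related genes and of cell type markers with measured clones. The black bar is the median of a list and the shaded band holds the middle 80% of all clones. The clones of the 6 genes have a median of -0.23, against -0.0030 over all clones, and Rab3 and Nrg lie to the left of the band.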

How the data were processed

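Heads of untreated Oregon-R males were profiled on 4 NF-NF two-colour cDNA arrays. The authors quantified the spots with GenePix Pro 6.0, normalized the ratios of each slide and filtered the spots in Acuity 4.0, and deposited log2 ratios of Cy5 over Cy3 per spot. Spots were kept with under 3% saturated pixels, an R2 between the channels above 0.6 and a signal-to-noise ratio above 3, so weak and saturated transcripts are missing. No intensities were used here, and the number of arrays limits the precision.

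Adjacent duplicate spots were averaged into clones, and clones measured on 3 or 4 arrays were kept (4208, of which 2551 were named by 1 gene). Each array's median over these clones was subtracted. Symbols of the platform annotation were matched by Entrez identifier to a RefSeq table of genes for 98.5% of 15116 probes with 1 symbol. Of 225 listed names, 3 matched no current symbol. A difference of each clone's mean from 0 was tested in R 4.3.3 with limma 3.58.1, two-sided, with Benjamini-Hochberg adjustment over all 4208 clones at 0.05, after a check on simulated data. SAM for 1 class was recomputed over the 16 possible sign patterns. Differences between genes, with the clones of a gene averaged, were tested with exact permutation of signs. The rule for named genes took all clones of the 6 genes, the 2 most similar clones of each and the highest and lowest clone of each list. Other genes were named after their values were seen (CG10194, Sesn, Syt12, Ank, alpha-Spec, Gli, Nlg2, fra, Yp2, Lsp2 and apolpp). The members and lists were chosen with earlier results of these data known. Alternatives were other centrings, single spots, turned signs, SAM, complete clones and leaving out each array. Subtraction of the median of spots within 24 rows (at least 4 spots) was added after seeing the data.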

Additional observations from a re-analysis of the deposited data

Results flagged for a closer look

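Of 7 sets of 4 array values examined, 3 had 1 value far from the others, where chance gives about 1 in 20 for each set. Replicate 4 had values for 2240 spots and a median of -0.697 as deposited, both far below the other arrays. The mean of the clones of unc-13 was -0.029 on replicate 3, far above -0.18 to -0.20 on the other arrays. That value on replicate 3 averages -0.22 in the first clone and 0.16 in the second. On replicate 4 only the second clone of unc-13 had a value, so the -0.20 there is not an average of clones.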

How the results depend on the processing

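Limits: 4 arrays of 1 group, no intensities, and dye orientations that the sources do not settle. All samples belong to 1 group, so no samples could be paired between groups. Each ratio already sets the Cy5 pool of an array against its Cy3 pool, and genes were compared within arrays. The limma test called 0 of 4208 clones as reported and under values as deposited and turned signs. With the first or second spot only it called 0 of 4205 and 0 of 4206 clones, and with complete clones 0 of 726. It called 78 with the array median over clones on all 4 arrays, 2 with the 49 nearest spots and 16 of 4120 with spots within 24 rows. SAM as recomputed here gave 246. Leaving out 1 array gave 0 to 380 clones, and 0 to 2 clones of the 6 genes (2 without replicate 4, Rab3 and Nrg). No other alternative called any of the 8 clones in limma. Clones of the 6 genes below on every array numbered 6, but 5 with the first spot, the second spot or the 49 nearest spots, 2 with spots within 24 rows, 1 of the 2 complete clones, and 0 with each pair of signs turned. Leaving out 1 array gave 6 to 7. Gene pairs with 1 sign numbered 10, but 11 with the 49 nearest spots, and 2, 2 and 3 with replicates 2 and 3, 2 and 4, and 3 and 4 turned. Leaving out 1 array gave 11 to 12.

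Of 106 alternative means of the 8 clones, 10 changed side. With replicates 2 and 3 turned these were the first clone of unc-13 (0.078), nSyb (-0.012), the first clone of Sh (0.036) and Nrg (0.050). With 2 and 4 turned they were the second clones of unc-13 (0.077) and Sh (0.12), and with 3 and 4 turned the first clone of Sh (0.015). With the 49 nearest spots it was the second clone of unc-13 (0.16), and with spots within 24 rows this clone (0.22) and Ace (0.11). The cause was not tested. By construction, turning signs moves opposite values into 1 mean and mixes the signs of a clone that lay on 1 side.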
